A study of Mus musculus with 6 samples.

Results

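The glycosyltransferases and sulfotransferases that build the sugar chains of mucins were examined in mouse lung. Members were taken by gene symbol, as every entry whose name begins with Galnt, B3gnt, B4galt, C1galt, Gcnt, Fut, St3gal, St6gal, St8sia or Chst followed by a digit. This rule used no measured value and found 76 of the 23238 symbols in the tables. Of these, 74 are enzyme or chaperone genes, 1 is a pseudogene (Fut4-ps1) and 1 is a transcript antisense to St8sia3 (St8sia3os). The lung tissue came from wild-type (WT) mice of 2 groups. One was given PM and the other was given PBS (phosphate-buffered saline) as vehicle, both by a route abbreviated i.t. The series title calls the exposure chronic. The labels give no dose, duration, strain, age or sex, do not spell out PM, and do not say whether samples came from separate animals. The question addressed was how the exposure changes gene expression in the lung. The PBS replicate 2 table was identical to that of PBS replicate 1 and the pair was counted once, leaving PBS replicates 1 and 3 and PM replicates 1, 2 and 3.

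Mucins are proteins with long runs of serine and threonine that the Golgi covers with O-linked sugar chains. GalNAc-transferases (Galnt) place the initial sugar, C1galt1 adds galactose to it with the help of the chaperone C1galt1c1, and Gcnt enzymes start branches. B3gnt and B4galt enzymes then lengthen the chains, and fucosyltransferases (Fut), sialyltransferases (St3gal, St6gal, St8sia) and sulfotransferases (Chst) cap them. Fucose, sialic acid and sulfate ends give airway mucus its charge and its binding sites. Most of these families are not limited to mucins, since members also act on N-linked chains, glycolipids, selectin ligands or the glycosaminoglycan chains of proteoglycans. A bulk lung sample therefore holds their transcripts from epithelium, vessels, connective tissue and leukocytes together.

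Total counts ranged from 7410200 to 8827202 per library, and the members together took 0.152% to 0.175% of them. Levels are given as CPM, counts scaled to a common library size (per 1000000) after TMM normalisation, the trimmed mean of M values. Where a gene had 0 counts, its level may still reach 0.348 to 0.430 CPM depending on the library, a limit of 3 counts that covers counting error only. Alveolar type 2 cell markers summed to 14925 to 18755 CPM in each library, and the 5 oesophageal and squamous markers to between 0 and 0.464 CPM. Of 9 mucous cell markers, 2 were at 0 counts in each PBS library and 1, Muc5ac, in PM replicate 3. The mucous cell markers summed to 7.18 and 7.29 CPM in PBS, and to 532, 2177 and 133 CPM in PM replicates 1, 2 and 3.

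No member passed the test for a difference between PM and PBS. Of the 76 members, 55 had enough counts to be tested, and 0 were called in either direction at an adjusted p below 0.05. The test was edgeR's quasi-likelihood test, two-sided, with Benjamini-Hochberg adjustment over 14057 genes. It called 0.228% of all tested genes, 0.142% as higher and 0.0854% as lower in PM. At an unadjusted p below 0.05 there were 11 of 55 members, 5 with higher and 6 with lower levels in PM, where 13.3% of all tested genes were at that level. DESeq2 and limma-voom also called 0 members, with 10 of 70 members by DESeq2 and 10 of 55 by limma-voom at an unadjusted p below 0.05. The smallest adjusted p was 0.152 (St8sia6, edgeR with Benjamini-Hochberg adjustment). The median log2 fold (PM minus PBS) of the tested members was -0.10, against 0.01 over all tested genes. All PM libraries lay above both PBS libraries for 6 tested members, where this held for 15.5% of all tested genes. They lay below both for 12, where this held for 16.1%. The values below therefore describe levels and directions, and none of them is a called change.

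**Figure D1:**
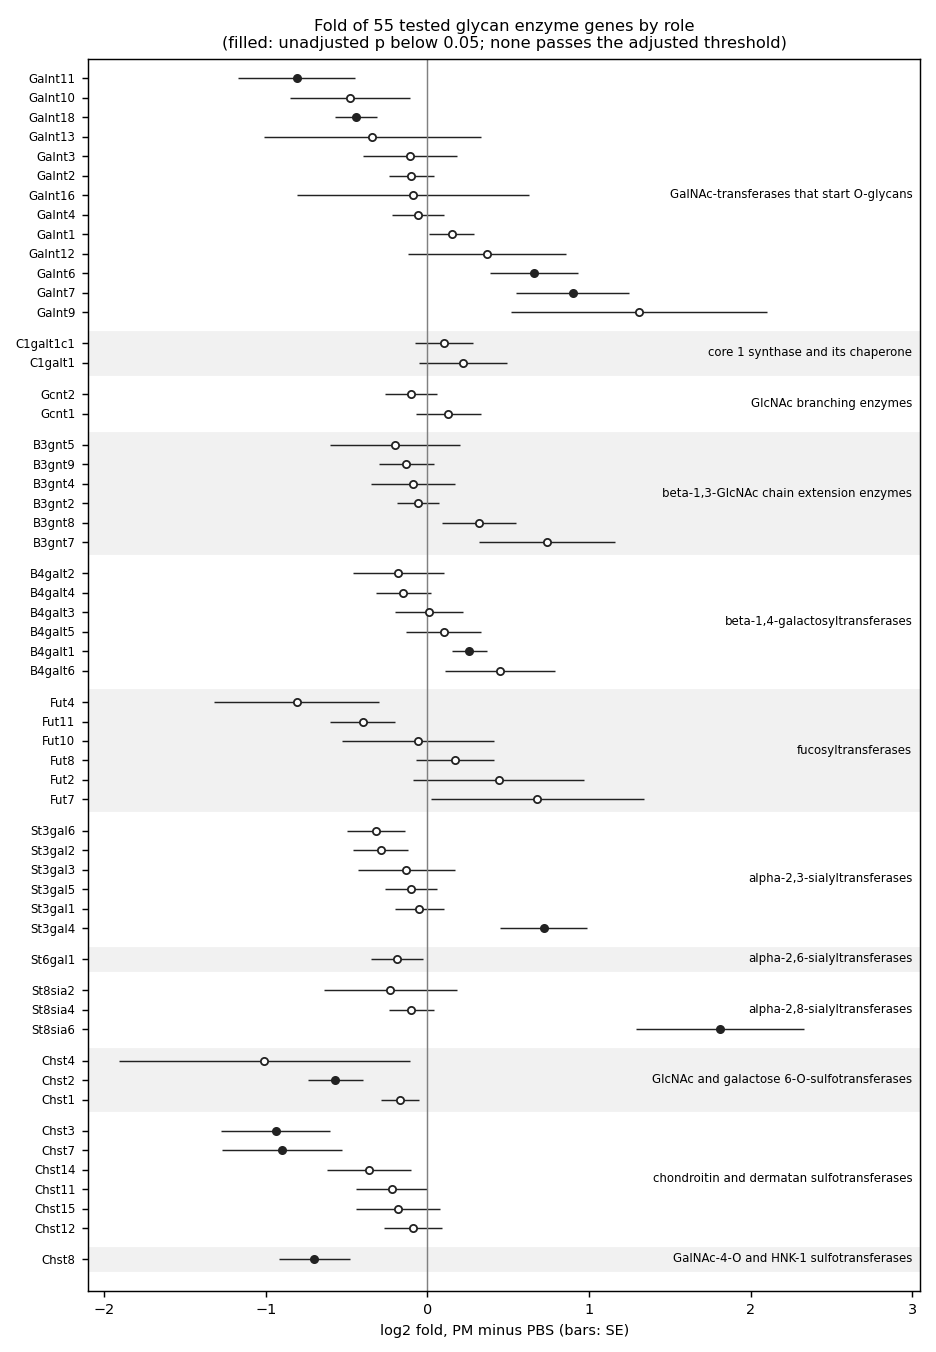
Log2 fold, PM minus PBS, with its standard error for the 55 tested members, arranged by role; filled points have an unadjusted p below 0.05. All 10 sulfotransferases lie left of 0, the 45 other members lie on both sides of it, and St8sia6 lies farthest to the right at 1.81.

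The 250 bases upstream of the RefSeq transcription start (GRCm38.p6) are shown for the 2 higher and the 2 lower members with the smallest unadjusted p among those with an entry in the promoter table. They let the start regions of members with folds in opposite directions be read side by side. Capitals mark each match to GGGCGG or its reverse complement, the letters of a GC box, to which Sp-family factors bind. St8sia6 lies on chromosome 2 and its window is chr2:13793521-13793770 on the minus strand. The window of St3gal4 is chr9:35116865-35117114, that of Chst2 chr9:95407271-95407520 and that of Chst8 chr7:34812712-34812961, all on the minus strand.
St8sia6: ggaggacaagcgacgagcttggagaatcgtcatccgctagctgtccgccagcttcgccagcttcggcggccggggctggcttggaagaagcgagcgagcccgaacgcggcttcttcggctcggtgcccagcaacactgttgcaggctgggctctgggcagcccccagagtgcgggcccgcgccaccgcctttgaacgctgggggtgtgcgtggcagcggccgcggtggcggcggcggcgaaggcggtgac
St3gal4: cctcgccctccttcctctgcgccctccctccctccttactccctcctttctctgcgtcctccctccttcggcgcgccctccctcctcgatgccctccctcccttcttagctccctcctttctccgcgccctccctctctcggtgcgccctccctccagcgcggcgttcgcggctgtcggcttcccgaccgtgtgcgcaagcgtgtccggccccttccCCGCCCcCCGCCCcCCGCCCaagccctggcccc
Chst2: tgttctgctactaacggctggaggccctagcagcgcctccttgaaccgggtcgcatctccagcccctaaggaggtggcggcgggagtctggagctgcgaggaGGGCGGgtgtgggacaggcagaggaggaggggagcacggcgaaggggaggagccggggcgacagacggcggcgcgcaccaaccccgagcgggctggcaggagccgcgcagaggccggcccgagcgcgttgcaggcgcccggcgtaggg
Chst8: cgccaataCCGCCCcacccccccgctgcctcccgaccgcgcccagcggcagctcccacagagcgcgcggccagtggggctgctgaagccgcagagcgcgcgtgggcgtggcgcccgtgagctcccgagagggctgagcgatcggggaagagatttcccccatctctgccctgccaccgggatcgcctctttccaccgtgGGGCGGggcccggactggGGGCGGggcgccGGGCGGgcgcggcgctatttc
In these 4 windows the GC content was 70.8%, 72.8%, 72.8% and 75.6%. The GC box letters occurred in the windows of St3gal4, Chst2 and Chst8 and not in that of St8sia6, so they were present on both sides. Among members at an unadjusted p below 0.05, they occurred in 4 of 6 windows of higher and 5 of 6 of lower genes. These windows are too few to compare the sides. The table held 74 windows for 56 of the members, with a median GC content of 60.8% against 52.4% over all 32851 windows. On either strand, GGGCGG matched 44 of the 74 (59.5%), against 32.7% of all windows. The STAT motif with the longer spacer, as STAT6 prefers, matched 2 of the 74, those of Galnt9 and Gcnt1, against 5.85% of all windows. TTCNNNGAA, the shorter spacing used by other STAT factors, matched 3 windows (B4galt1, Gcnt2 and Gcnt4) against 7.02%. TGTTTAC (forkhead) and CCGGAAGT (ETS) matched 0 windows against 3.17% and 2.88%, CCAAT matched 22 against 33.8%, and TATAAA matched 1 (Gcnt1) against 12.4%. Matches of different motifs overlapped in 0 of the 74 windows. A match describes letters only.

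The GalNAc-transferases, which start O-glycans, held members in both directions. Of 16 in the tables, 13 were tested. Their log2 folds ranged from -0.81 to 1.31 with a median of -0.09, with 2 on the higher and 2 on the lower side among those at an unadjusted p below 0.05. Galnt1, a broadly expressed member, had the highest counts, at 140 and 132 CPM in PBS and 147, 175 and 130 CPM in PM. Its groups overlapped, and its log2 fold was 0.15 ± 0.14 SE (adjusted p = 0.676, edgeR with Benjamini-Hochberg adjustment), or 0.04 without PM replicate 2. Per kilobase of exon it stood at 24.6 CPM in PBS, close to Galnt18 at 27.2 and Galnt2 at 25.1, and these were well above the next member, Galnt4, at 6.99.

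Galnt7, which acts best on peptides that already carry GalNAc, stood at 27.6 and 19.1 CPM in PBS and at 38.9, 63.1 and 29.1 CPM in PM. PM replicate 2 was the highest library and PM replicate 3 lay just above PBS replicate 1, so the groups did not overlap. The log2 fold was 0.90 ± 0.35 SE (unadjusted p = 0.038, adjusted p = 0.335, edgeR with Benjamini-Hochberg adjustment). Without PM replicate 2 it was 0.54. With the replicate number as a block it was 0.55, but that fit takes no fold from PM replicate 2, which shares its number with no PBS library used. Galnt6 stood at 14.6 and 10.6 CPM in PBS and at 22.7, 23.5 and 13.7 CPM in PM. PM replicate 3 lay between the PBS libraries, and the log2 fold was 0.66 ± 0.27 SE (adjusted p = 0.310, edgeR with Benjamini-Hochberg adjustment). For both genes PM replicate 2 was highest and PM replicate 3 lowest of the PM libraries, the order also seen in the summed mucous cell markers. The share of counts taken by Rn45s had the same order, at 25.4%, 23.6% and 15.7% in PM replicates 2, 1 and 3. The part of mucous cells, or of the Rn45s share, in these levels was not tested. Exons of Galnt7 overlap AW046200 and those of Galnt6 overlap Galnt6os on the opposite strand, and reads of such pairs cannot be told apart without known strand use.

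Galnt18 was at 69.8 and 70.5 CPM in PBS and at 57.5, 47.0 and 50.4 CPM in PM. The PBS libraries were nearly equal and all PM libraries lay below them. Galnt18 lies at chr7:111471661-111779977 in GRCm38. The log2 fold was -0.44 ± 0.13 SE (unadjusted p = 0.00669, adjusted p = 0.167, edgeR with Benjamini-Hochberg adjustment). With all 6 deposited tables, which enters the identical pair as 2 libraries, Galnt18 passed edgeR's test at an adjusted p of 0.0445 and St8sia6 at 0.0389. Galnt11 stood at 5.56 and 8.03 CPM in PBS and 4.09, 3.15 and 4.29 CPM in PM, with no overlap. Its log2 fold was -0.81 ± 0.36 SE (adjusted p = 0.349, edgeR with Benjamini-Hochberg adjustment), or -0.53 without PBS replicate 3. Its exons overlap E130116L18Rik on the opposite strand.

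Galnt9, best known from brain, had the largest fold of the family but few reads, at 3 and 7 counts in PBS and 8, 15 and 12 in PM (log2 fold 1.31 ± 0.79 SE, adjusted p = 0.509, edgeR with Benjamini-Hochberg adjustment). Without PBS replicate 1 it was 0.81, and without PBS replicate 3 it was 2.08. The remaining tested GalNAc-transferases (Galnt2, Galnt3, Galnt4, Galnt10, Galnt12, Galnt13 and Galnt16) had log2 folds from -0.48 to 0.37. Galnt3, which acts on mucins and on the hormone FGF23, lay within 6.54 to 7.18 CPM in every library. Galnt4 shares exon sequence with Poc1b on the same strand, so its reads may be shared. Galnt5, Galnt14 and Galnt15 were not tested. Galnt14 was at 0 counts throughout, Galnt5 had at most 3 counts in a library, and Galnt15 had 6 and 6 counts in PBS against 0, 0 and 2 in PM. These and the other untested genes given with counts were chosen after their values were seen.

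**Figure D2:**
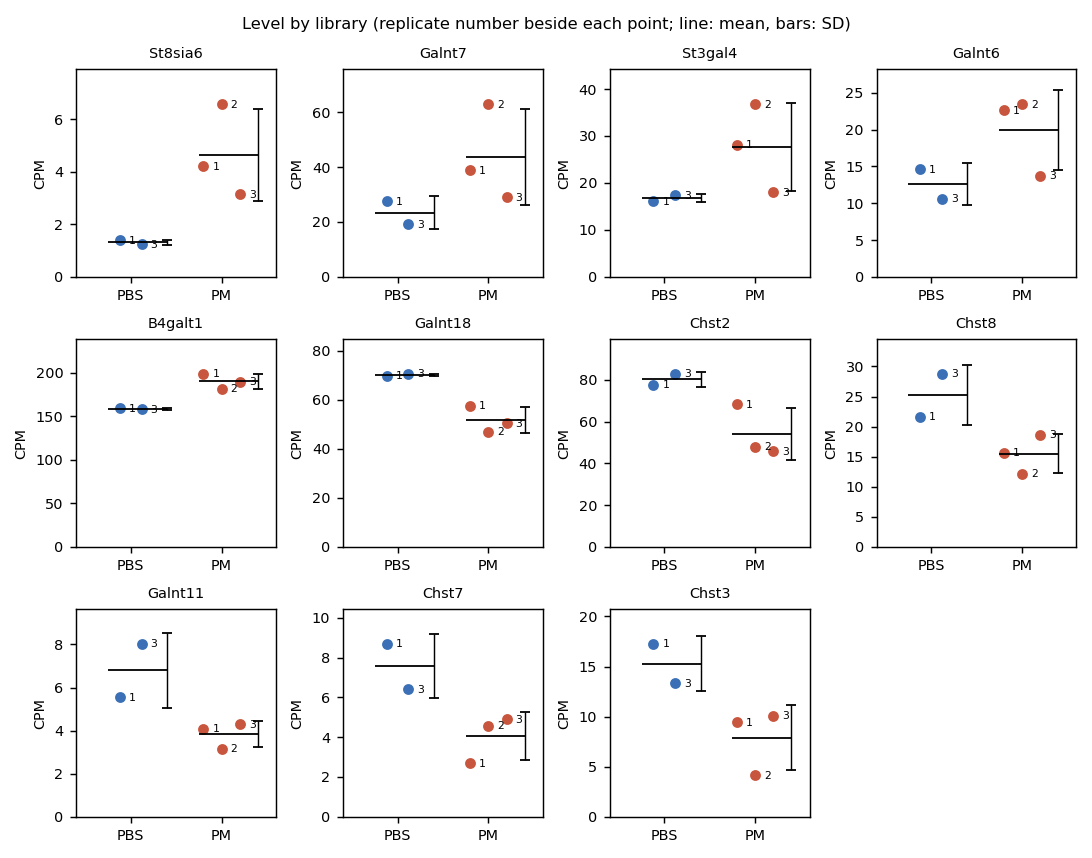
CPM in each library for the 11 members with an unadjusted p below 0.05, with replicate numbers beside the points, a line at the group mean and a bar for the SD (n = 2 PBS and 3 PM libraries). Each axis starts at 0. PM replicate 2 is the highest library for St8sia6, Galnt7, St3gal4 and Galnt6, and PM replicate 3 the lowest of the PM libraries for the same genes.

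The enzymes that make and branch the core were close to level between groups. C1galt1, the core 1 synthase, stood at 8.34 and 7.66 CPM in PBS and 9.58, 10.3 and 8.07 CPM in PM. The groups overlapped, with a log2 fold of 0.22 ± 0.27 SE. Its chaperone C1galt1c1 stood at 25.1 and 26.7 CPM in PBS and 22.8, 30.4 and 30.3 CPM in PM, with a log2 fold of 0.10 ± 0.18 SE. Per kilobase the chaperone stood at 17.9 CPM in PBS and the synthase at 1.31.

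Among branching enzymes, 2 of 5 were tested. Gcnt2, which makes the branches of the I blood group antigen, stood at 96.6 and 90.4 CPM in PBS and 84.4, 70.1 and 107 CPM in PM. The PM libraries spread on both sides of PBS, and the log2 fold was -0.10 ± 0.16 SE. Gcnt1, the leukocyte-type core 2 enzyme, lay between 13.9 and 16.9 CPM in every library (log2 fold 0.13 ± 0.20 SE). Gcnt3, the mucin-type core 2 enzyme of secretory epithelia, was barely detected, with 0 counts in both PBS libraries and 1, 11 and 0 counts in PM. All but 1 of its counts were in PM replicate 2, the library with the most mucous cell marker RNA and the largest Rn45s share. Gcnt4 likewise had 14 of its 18 counts in PM replicate 2, and Gcnt7 was at 0 throughout.

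Of the chain-lengthening enzymes, the GlcNAc-adding B3gnt members had summed levels that differed little between libraries. The 8 B3gnt members summed to 121 and 122 CPM in PBS and to 123, 123 and 120 CPM in PM. Their 6 tested members had log2 folds from -0.20 to 0.74, with 0 at an unadjusted p below 0.05. B3gnt2, the main polylactosamine enzyme, was at 53.8 and 47.0 CPM in PBS and 47.3, 50.7 and 47.5 CPM in PM. Its groups overlapped (log2 fold -0.06 ± 0.13 SE), and it shares exon sequence with Gm12057 and Gm28048 on its strand. B3gnt7, which lengthens sulfated chains of keratan sulfate type, had the largest fold. It stood at 4.40 and 4.45 CPM in PBS and 8.18, 10.3 and 3.78 CPM in PM. PM replicates 1 and 2 lay above PBS and PM replicate 3 below it, so the log2 fold of 0.74 ± 0.42 SE rested on 2 libraries (adjusted p = 0.485, edgeR with Benjamini-Hochberg adjustment). It was 0.44 without PM replicate 2 and 0.37 with the replicate number as a block, which takes no fold from that library either. B3gnt3, which lengthens core 1, and B3gnt6, which makes core 3, were not tested. B3gnt3 had 9 and 2 counts in PBS and 2, 16 and 9 in PM, and B3gnt6 had 2 and 8 in PBS and 0, 1 and 3 in PM.

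The 7 B4galt members, which add galactose to the chains, summed to 231 and 236 CPM in PBS and to 278, 265 and 255 CPM in PM, with no overlap. Most of that difference came from B4galt1. Its mean was 159 CPM for PBS against 190 for PM, where the mean sum was 234 against 266. Of the 6 tested members, only B4galt1 lay higher in every PM library, and B4galt4 lay lower in each (log2 fold -0.15 ± 0.17 SE). The median log2 fold of the family was 0.06. B4galt1, the main galactosyltransferase of N- and O-linked chains and a subunit of lactose synthase, was among the best measured members, with 1269 to 1700 counts in a library. It stood at 159 and 158 CPM in PBS and at 199, 182 and 190 CPM in PM. All PM libraries lay above the nearly equal PBS libraries, with PM replicate 2 the lowest of them. The log2 fold was 0.26 ± 0.11 SE (unadjusted p = 0.0338, adjusted p = 0.320, edgeR with Benjamini-Hochberg adjustment). Across the other fits it lay between 0.23 and 0.29. B4galt6, which makes lactosylceramide, had the largest fold of its family at 0.45 ± 0.34 SE, with 8.92 and 7.41 CPM in PBS and 8.53, 16.8 and 8.32 CPM in PM. PM replicate 2 stood alone. Without it the log2 fold was 0.05, as it was with the replicate number as a block, a fit that takes no fold from that library. The other tested members, B4galt2 to B4galt5, had log2 folds from -0.18 to 0.10, and B4galt7, a linker enzyme of proteoglycans, had at most 4 counts in a library and was not tested.

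Fucosyltransferases had low levels and folds on both sides of 0, with 0 of 6 tested members at an unadjusted p below 0.05. Fut11 had the highest counts of the family over all libraries, at 23.2 and 19.1 CPM in PBS and 14.1, 18.9 and 15.1 CPM in PM. PM replicate 2 lay just below PBS replicate 3, and the log2 fold was -0.40 ± 0.20 SE (adjusted p = 0.430, edgeR with Benjamini-Hochberg adjustment). Without PBS replicate 1 the log2 fold of Fut11 was -0.25. Fut8, which adds the core fucose of N-linked chains, was higher than Fut11 in PM on average, with 18.0 and 14.1 CPM in PBS and 15.4, 23.2 and 15.8 CPM in PM. Its groups overlapped (log2 fold 0.17 ± 0.24 SE). Fut4, a leukocyte enzyme that makes Lewis x, stood at 4.52 and 2.59 CPM in PBS and 2.57, 1.58 and 1.89 CPM in PM, with a log2 fold of -0.81 ± 0.51 SE. Without PBS replicate 1, the highest library, it was -0.35. Fut7, the leukocyte enzyme for selectin ligands, rested on 7 to 13 counts a library, all PM libraries above PBS, with a log2 fold of 0.68 ± 0.66 SE.

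Fut2, which adds the terminal fucose to mucin chains of epithelia, was at 2.09 and 2.10 CPM in PBS and 2.57, 4.01 and 2.02 CPM in PM. Its PM libraries lay on both sides of PBS, with PM replicate 2 highest (log2 fold 0.44 ± 0.53 SE). The related Fut1 had 14 and 2 counts in PBS and 0 in every PM library, too few to test. Fut9 had 1 count in each PBS library and 6, 8 and 1 counts in PM. Fut4-ps1 was at 0 in every library.

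Among sialyltransferases, 10 of 14 were tested and 8 of these had log2 folds below 0, from -0.32 to -0.05. The other two, St3gal4 and St8sia6, stood apart on the higher side. St8sia6, which adds sialic acid to sialic acid on O-glycans, had the largest fold of all tested members. It stood at 1.39 and 1.23 CPM in PBS and at 4.21, 6.59 and 3.15 CPM in PM (12 and 10 counts, against 36, 46 and 25). Every PM library held more than both PBS libraries. The log2 fold was 1.81 ± 0.52 SE (unadjusted p = 0.005, adjusted p = 0.152, edgeR with Benjamini-Hochberg adjustment), and it lay between 1.47 and 2.02 in the other fits. St8sia6 lies on chromosome 2 at 13651021 to 13794064 in GRCm38, and its exons overlap Gm37126 on the opposite strand.

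St3gal4, which caps galactose on mucin chains and selectin ligands, stood at 16.1 and 17.4 CPM in PBS and at 28.2, 36.8 and 18.0 CPM in PM. PM replicate 3 lay barely above PBS replicate 3, and the other PM libraries far above. The log2 fold was 0.72 ± 0.27 SE (adjusted p = 0.287, edgeR with Benjamini-Hochberg adjustment). Without PM replicate 3 it was 0.95 and passed edgeR's test at an adjusted p of 0.0309, the 1 call among the members when a library was left out. Without PM replicate 2 it was 0.47 (adjusted p = 0.477, edgeR). With the replicate number as a block, which takes no fold from that library, it was 0.44 (adjusted p = 0.374, edgeR). St3gal1, the core 1 sialyltransferase, had the highest counts of its family, at 94.6 and 101 CPM in PBS and 83.6, 83.7 and 116 CPM in PM. Its log2 fold was -0.05 ± 0.15 SE. Per kilobase in PBS, St3gal5, which makes the ganglioside GM3, stood highest of the sialyltransferases at 20.7 CPM, above St3gal1 at 14.3. St6gal1, which caps N-linked chains, was at 29.3 and 33.2 CPM in PBS and 29.9, 25.1 and 26.9 CPM in PM (log2 fold -0.19 ± 0.16 SE). St8sia4, a polysialic acid synthase, lay between 40.0 and 45.6 CPM in every library. St8sia1, St8sia3, St8sia5 and St6gal2 were not tested, and St6gal2 and St8sia3os were at 0 counts throughout.

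The tested sulfotransferases all stood on the lower side. All 10 tested Chst members had log2 folds below 0, from -1.01 to -0.09 with a median of -0.47, while 48.9% of all tested genes had log2 folds below 0. The grouping by this prefix was made after the values were seen. None of the 10 was called, 4 were lower at an unadjusted p below 0.05 (6.05% of all tested genes), and for 5 all PM libraries lay below both PBS libraries (16.1% of all tested genes). Over all 14 Chst members the summed level was 359 and 359 CPM in PBS and 304, 249 and 306 CPM in PM. The mean sum was 286 ± 32.6 CPM in PM (SD, n = 3), a difference of -20.4% from PBS. The 62 other members summed to 1334 and 1299 CPM in PBS and 1327, 1393 and 1295 CPM in PM. Their mean differed by 1.64%, and the groups overlapped.

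**Figure D3:**
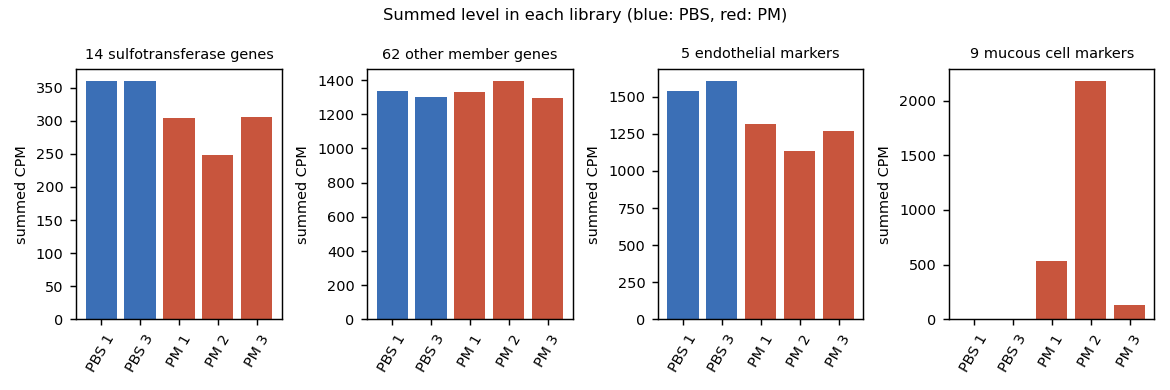
Summed CPM in each library for the 14 sulfotransferase genes, the 62 other members, 5 endothelial markers and 9 mucous cell markers, on axes that start at 0. The sulfotransferase sum lies at 359 CPM in both PBS libraries and at 249 to 306 CPM in PM, and the endothelial sum is lower in the same 3 libraries.

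Among the marker lists, the endothelial sum was lower in the same 3 libraries. The 5 endothelial markers summed to 1538 and 1604 CPM in PBS and to 1317, 1137 and 1270 CPM in PM. Of the 5, 4 (Pecam1, Cdh5, Kdr and Tek) lay lower in every PM library, where this held for 16.1% of all tested genes. Cldn5 overlapped, at 136 and 113 CPM in PBS and 133, 148 and 99.4 CPM in PM (log2 fold 0.02 ± 0.17 SE). The mean sum of the 5 markers differed by -21.0% from PBS, and none was at 0 in any library. Fibroblast markers summed to 1366 and 1276 CPM in PBS and 1387, 1622 and 880 CPM in PM, with overlap. Of the 5, 2 (Pdgfra and Tcf21) lay lower in every PM library, where this held for 16.1% of all tested genes. The log2 fold of Pdgfra was -0.78 ± 0.14 SE (adjusted p = 0.0525, edgeR with Benjamini-Hochberg adjustment) and that of Tcf21 was -0.47 ± 0.16 SE. The collagen genes Col1a1, Col1a2 and Col3a1 overlapped and made up most of the sum. Sums of alveolar macrophage markers stood at 278 and 522 CPM in PBS and at 1101, 1409 and 940 CPM in PM. Car4, the largest part of the sum in PBS, overlapped. It stood at 225 and 283 CPM in PBS and at 287, 225 and 298 CPM in PM (log2 fold 0.09 ± 0.15 SE). Chil3 alone stood at 18.2 and 127 CPM in PBS and at 591, 1014 and 453 CPM in PM. Of the 6 markers tested, 3 lay higher in every PM library, where this held for 15.5% of all tested genes. Marco was split within PM, at 52.1, 1.72 and 55.4 CPM in replicates 1, 2 and 3, and Fabp1 had a log2 fold of -0.60. Plasma cell markers summed to 110 and 118 CPM in PBS and to 206, 208 and 179 CPM in PM. Of these, Jchain lay higher in every PM library, at 5.56 and 3.46 CPM in PBS and 76.2, 68.6 and 46.3 CPM in PM. Xbp1, with the highest level of the list, overlapped at 95.7 and 110 CPM in PBS and 102, 130 and 119 CPM in PM. Ciliated cell and neutrophil markers had higher mean sums in PM, with overlap of the sums. Of 5 ciliated cell markers, 3 (Dnah5, Ccdc153 and Dynlrb2) lay higher in every PM library, where this held for 15.5% of all tested genes. Foxj1 and Tppp3 overlapped, and Tppp3, with the highest level of that list, had a log2 fold of -0.08. Of 7 neutrophil markers, 3 (Ltf, Mmp8 and Retnlg) lay higher in every PM library. The others overlapped, among them S100a8 and S100a9, which had the highest levels. The part of any of these cell types in the sulfotransferase levels was not tested, and in bulk tissue fewer cells of a type and less RNA per cell cannot be told apart.

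Of the sulfotransferases that act on GlcNAc and galactose, Chst1, which sulfates galactose of keratan sulfate and of selectin ligands, had the highest level per kilobase of all members, at 55.2 CPM in PBS. It stood at 149 and 147 CPM in PBS and 130, 120 and 144 CPM in PM, lower in all PM libraries by a small margin (log2 fold -0.17 ± 0.12 SE). Chst2, which sulfates GlcNAc in mucin-type chains and selectin ligands, stood at 77.6 and 82.9 CPM in PBS and at 68.4, 48.0 and 45.9 CPM in PM. PM replicate 1 lay closest to PBS, with no overlap. The log2 fold was -0.57 ± 0.17 SE (unadjusted p = 0.00687, adjusted p = 0.169, edgeR with Benjamini-Hochberg adjustment), and it lay between -0.77 and -0.46 in the other fits.

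Chst4, the sulfotransferase of high endothelial venules, had the lowest fold but few counts, with 24 and 13 in PBS and 10, 0 and 16 in PM (log2 fold -1.01 ± 0.90 SE). Its groups overlapped, and PM replicate 2 held none. Without PM replicate 2 the log2 fold was -0.47, and without PM replicate 3 it was -1.80. Of the other high endothelial markers, Glycam1 had 0 counts in both PBS libraries and 2, 9 and 2 counts in PM, opposite in direction to Chst4. Madcam1 had at most 1 count in a library, and Fut7, described above, stood higher in every PM library. Chst5, a sulfotransferase of mucosal surfaces, had 8 and 9 counts in PBS and 10, 9 and 6 in PM and was not tested.

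The chondroitin and dermatan sulfotransferases are best known for acting on proteoglycans, and 6 of 7 were tested. Chst3, a chondroitin 6-O-sulfotransferase, stood at 17.3 and 13.3 CPM in PBS and 9.47, 4.16 and 10.1 CPM in PM. All PM libraries lay below PBS, PM replicate 2 furthest (log2 fold -0.94 ± 0.34 SE, adjusted p = 0.253, edgeR with Benjamini-Hochberg adjustment). Chst7, also a chondroitin 6-O-sulfotransferase, stood at 8.69 and 6.42 CPM in PBS and 2.69, 4.59 and 4.92 CPM in PM. It did not overlap either (log2 fold -0.90 ± 0.37 SE, adjusted p = 0.316, edgeR with Benjamini-Hochberg adjustment). Chst12, a chondroitin 4-O-sulfotransferase with the highest counts of this role, was close to level at 28.2 and 23.6 CPM in PBS and 26.9, 21.9 and 24.0 CPM in PM (log2 fold -0.09 ± 0.18 SE). Chst11, Chst14 and Chst15 had log2 folds of -0.22, -0.36 and -0.18, with overlap between groups.

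Chst8, which sulfates GalNAc on the N-linked chains of pituitary hormones, stood at 21.7 and 28.8 CPM in PBS and 15.7, 12.2 and 18.7 CPM in PM. All PM libraries lay below PBS, with a log2 fold of -0.70 ± 0.22 SE (unadjusted p = 0.00867, adjusted p = 0.187, edgeR with Benjamini-Hochberg adjustment). Of the untested members, Chst10, which makes the HNK-1 epitope, lay higher in every PM library. It had 4 and 4 counts in PBS and 27, 8 and 7 in PM and did not pass the count filter. Chst13 had at most 2 counts in a library and Chst9 none.

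**Figure D4:**
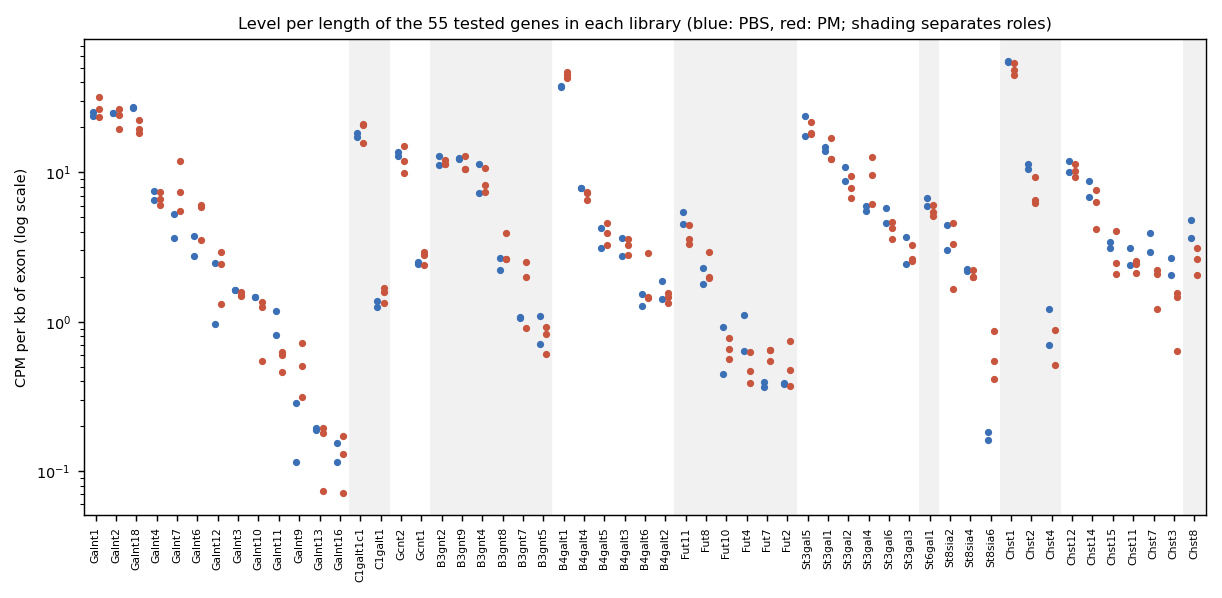
CPM per kilobase of annotated exon, on a log axis, in each library for the 55 tested members, ordered by level within each role; the 1 value at 0 (Chst4 in PM replicate 2) is not drawn. By group mean, Chst1, B4galt1 and the trio of Galnt1, Galnt2 and Galnt18 hold the highest levels in PBS and in PM. In single libraries this order can differ, as C1galt1c1 lies above Galnt18 in PM replicates 2 and 3.

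Levels differed far more between members than between groups. Per kilobase of exon the tested members ran from 0.134 CPM (Galnt16) to 55.2 CPM (Chst1) in PBS, and the 10 members with the most reads held 59.2% of all member counts. The length used is that of all annotated exons of a gene together, whichever isoform the lung makes. Of the 21 untested members, 6 were at 0 counts in all libraries and the others had up to 50 counts over the 5 libraries together.

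Genes beside the members in the pathway were read from lists written for this purpose. Among O-glycan and related genes outside the naming rule, not all of them enzymes, 9 of 20 were tested and 0 were called. At an unadjusted p below 0.05 there was 1 (11.1%), where this held for 13.3% of all tested genes. That gene was B3galnt2, an enzyme of dystroglycan glycans, with a log2 fold of 0.45 ± 0.18 SE. The median was 0.33. St6galnac1, which makes the sialyl-Tn cap of mucins, had at most 0.584 CPM in a library.

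Of 26 genes that supply sugar nucleotides and sulfate donor, all were tested and 0 were called. Log2 folds were above 0 for 19 of them, with a median of 0.15 and 2 at an unadjusted p below 0.05 (7.26% of all tested genes on the higher side). Gfpt1, the entry enzyme of the hexosamine pathway, stood at 83.1 and 79.8 CPM in PBS and 110, 134 and 111 CPM in PM. All PM libraries lay above PBS, with a log2 fold of 0.54 ± 0.13 SE (adjusted p = 0.0948, edgeR with Benjamini-Hochberg adjustment). Slc35b2, which carries the sulfate donor PAPS into the Golgi, was at 44.0 and 38.0 CPM in PBS and 57.2, 66.1 and 44.4 CPM in PM. Its log2 fold was 0.44 ± 0.18 SE (adjusted p = 0.303, edgeR with Benjamini-Hochberg adjustment), on the opposite side to the sulfotransferases. Papss1 and Slc35b3 of the same list were level, with log2 folds of 0.00 and 0.01. Papss2 had the lowest log2 fold of the list, at -0.38 ± 0.33 SE.

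The mucins themselves had 4 tested members of the 9 in the tables, all with log2 folds above 0 and 0 called. Muc5b, a gel-forming mucin of the airway, stood at 4.40 and 2.22 CPM in PBS and 39.4, 102 and 18.5 CPM in PM. Muc4, a membrane mucin, stood at 9.73 and 10.9 CPM in PBS and 16.1, 39.4 and 20.2 CPM in PM. PM replicate 2 was highest for both, with log2 folds of 3.98 ± 1.16 and 1.29 ± 0.39 SE. The largest log2 fold among the tested glycan enzymes was the 1.81 of St8sia6.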

How the data were processed

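RNA sequencing of lung tissue was deposited as 1 table for each of 6 samples. RNA came from easy-BLUE extraction and libraries from the Lexogen SENSE mRNA-Seq kit, per the labels' protocols. Per the submitters' processing notes, TopHat, Cufflinks and the build mm10 are named. The sources used here do not give their versions, the counting program, the annotation or the use of strand. Each deposited table holds whole-number counts per gene symbol, which the authors left unnormalized. A blank line without a gene name in the PBS replicate 1 table and its copy was left out.

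Entries that shared a symbol were reduced to the one with the highest total, which set aside 44 of 23282 entries with 0.0251% of counts and no member. Counts were tested with edgeR 4.0.16 in R 4.3.3 (filterByExpr, TMM, quasi-likelihood with robust estimation, no covariates, n = 2 PBS and 3 PM libraries), with Benjamini-Hochberg adjustment over 14057 genes. The standard error is the log2 fold divided by the square root of F. As the labels do not name separate animals, the spread behind each p-value is that between these samples, which may be technical. The procedure was tested on simulated data. Alternatives used DESeq2 1.42.0, limma 3.58.1, other scalings and filters, and fewer or more libraries. All 76 members matched GENCODE M21 (GRCm38, the assembly of mm10) for coordinates, exon length and overlap. Promoter sequences are RefSeq's for GRCm38.p6.

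Genes described in full were those with an adjusted or unadjusted p below 0.05 and, in each role, the tested gene with the highest mean CPM and that with the largest absolute log2 fold, 28 in all. A gene at 0 in one group and at 3 or more counts in each library of the other would also have been taken. Others were chosen after their values were seen. The members, roles and lists were chosen with earlier results of these data known.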

Additional observations from a re-analysis of the deposited data

How the results depend on the processing

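The number of genes called over the whole table depended on the fit. Against 32 in the design as written, it was 275 with no filter on low counts, 360 by DESeq2, 17 by limma-voom, 206 at an adjusted p below 0.10 and 635 with all 6 tables as deposited. Leaving out 1 library at a time gave 1 to 427. The number of glycan enzyme genes called was 0, and 2 with all 6 tables as deposited (Galnt18 and St8sia6), while leaving out 1 library gave 0 to 1 (St3gal4 without PM replicate 3). At an unadjusted p below 0.05 it was 4 to 14 when 1 library was left out. The median log2 fold of the tested members was -0.13 with all 6 tables, and -0.11 to 0.03 with 1 library left out. With the replicate number as a block, 353 genes were called, 0 of them members, with a member median of -0.08. PM replicate 2 was the only library of its number in that fit, so the folds came from the other libraries. The block is therefore not a check apart from leaving out PM replicate 2. The labels do not say that numbers pair samples. The correlation of deviations from the group means was -0.03 for number 1 and 0.06 for number 3. With 2 PBS libraries the deviations of one mirror those of the other, so these values cannot settle whether samples were paired. With this replicate block 2 log2 folds changed sign, Gcnt2 to 0.02 and St3gal1 to 0.01. With 1 library left out, B3gnt2 ranged from -0.15 to 0.05, Chst12 from -0.21 to 0.04, Gcnt2 from -0.27 to 0.03 and St3gal1 from -0.22 to 0.03. The other 24 of the 28 genes described in full kept their sign in every fit that gave a value. All tested sulfotransferases stayed below 0 in the fits that tested 10 of them. Without a filter, and by DESeq2, 10 of 13 were below 0, without PBS replicate 1 it was 9 of 11, and without PBS replicate 3 it was 10 of 11. The causes were not tested. Depth limits the 21 untested members.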
